A study of Mus musculus with 4 samples.

Results

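The core transcription factors of the B lineage are a set of 10 genes, *Pax5*, *Ebf1*, *Tcf3*, *Tcf4*, *Id3*, *Spi1*, *Spib*, *Pou2f2*, *Pou2af1* and *Bach2*. They were taken by symbol from the deposited counts, where each has 1 row, so that 10 of 55401 listed genes are described here. The RNA came from splenic B220+ B cells of C57BL/6J mice, and 2 libraries were made for each genotype. The controls, NSD1 B WT, were Mb1-Cre+ NSD1+/+, and the knockout, NSD1 B KO, was Mb1-Cre+ NSD1fl/fl with exons 6 to 8 floxed. The comparison asks how the loss of the H3K36 methyltransferase NSD1 in B cells changed the transcripts of these factors. Both genotypes carry Mb1-Cre, which is driven from *Cd79a*, so that Cre is present in the controls as well. The Methods give 1 age range for the mice of both sexes used in the experiments, with younger mice only for early B1 cell development. They give no age, sex or number of mice per library. Where the 2 libraries of a genotype are not separate mice, the p-values below measure a spread that may be technical.

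These factors form the network that makes and keeps a B cell. The E proteins TCF3 and TCF4 bind E box sequences as dimers, and ID3, which has no DNA-binding region of its own, pairs with them and holds them off DNA. EBF1 acts with the E proteins to specify the lineage, and PAX5 then commits the cells to it by activating B cell genes and silencing those of other lineages. PU.1 (*Spi1*) and SPIB are related ETS factors that share many binding sites in B cells, OCT2 (*Pou2f2*) binds the octamer of immunoglobulin promoters with its coactivator OBF1 (*Pou2af1*), and BACH2 restrains the plasma cell program.

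Counts on genes were 6769118 to 7566834 per library, and levels are given as CPM, the count set to a common library size by edgeR's TMM method. Mitochondrial genes held 7.14% and 7.90% of the counts for NSD1 B WT against 8.98% and 9.27% for NSD1 B KO. The part of this difference in the results was not tested. All 8 markers of B cells examined were counted in every library, and 6 fell, 0 rose and 2 were not past the threshold in NSD1 B KO. The most counted of them, *Cd79b*, had a log2 fold change of 0.26 (edgeR adjusted p = 0.00213), which passed in 7 of 13 alternatives, and 1 marker rose and 4 fell with a trend with exon length removed. The targeted gene *Nsd1* had 497 and 480 counts for NSD1 B WT against 284 and 280 for NSD1 B KO. Its log2 fold change was -0.74 (standard error, SE, 0.11; edgeR adjusted p = 8.08e-08), and the counts cover the whole gene, not the floxed exons alone. Markers of other cell types were present as well and moved with genotype. The summed level of 8 erythroid markers was 35.6 to 39.6 CPM for NSD1 B WT against 1690 to 1944 CPM for NSD1 B KO, and that of 8 plasma cell markers 331 to 344 and 273 to 281 CPM. The sum of 10 myeloid markers was 4570 to 4673 and 5735 to 6083 CPM, nearly all of it *Lyz2*, and that of the other 9 was 123 to 137 and 192 to 193 CPM, with members that moved both ways. The sum of 8 NK cell markers was 55.8 to 59.6 and 101 to 102 CPM, mostly *Nkg7*, while *Prf1* went from 0 counts to 87 and 89, *Klrd1* from 0 to 62 and 59, and *Klrb1c* from 26 and 21 to 0. The sum of 10 T cell markers, 67.9 to 68.3 and 59.9 to 65.2 CPM, joined 2 that rose and 4 that fell. *Cd3g* rose from 125 and 119 counts to 258 and 235 and *Cd3d* from 63 and 53 to 115 and 99, while *Thy1* went from 41 and 35 to 0, *Tcf7* from 34 and 30 to 0, *Lck* from 32 and 42 to 3 and 4, and *Trac* from 183 and 214 to 92 and 64. Of the erythroid markers *Klf1* and *Slc4a1*, of the NK cell markers *Ncr1*, *Gzma*, *Eomes* and *Klre1*, of the T cell markers *Cd4* and *Cd8a*, and of the plasma cell markers *Sdc1* and *Tnfrsf17* were at 0 in all 4 libraries. Of the sex-linked genes, *Xist* fell from 47 and 62 counts to 1 and 2, and the Y-linked *Eif2s3y* from 1014 and 988 to 169 and 184, while the Y-linked *Kdm5d* rose 4.15-fold, *Uty* 1.53-fold and *Ddx3y* 1.47-fold. Of the genes tested, 2203 (18.9%) had 0 counts in both libraries of 1 genotype, with NSD1 B WT at 0 for 890 of them and NSD1 B KO for 1313. Among these were broadly used genes such as *Dlat*, a subunit of pyruvate dehydrogenase, with 98 and 67 counts for NSD1 B WT against 0. How the reads were counted is not known in full, and the changes to or from 0 given below are to be read beside this share. In these bulk libraries, fewer cells of a type and less RNA per cell cannot be told apart. The part of these markers in the results below was not tested.

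Of the 10 factors, 5 rose and 4 fell with the knockout, and 1 was not past the threshold. The threshold asked for an adjusted p under 0.05 and more than a 1.2-fold difference, in edgeR's quasi-likelihood test on all 11657 genes with enough counts. Of all these genes 78.2% were past it, 37.1% higher and 41.1% lower, so that 9 of 10 is near the background and is no result about these factors. Their median log2 fold change was 0.16, against -0.10 over all genes tested, and their median absolute change was 1.14 against 1.16. The summed level of the 10 genes was 522 ± 25.3 CPM for NSD1 B WT against 534 ± 18.7 CPM for NSD1 B KO (mean ± SD, n = 2). The sum thus differed by less than its spread while the single genes moved far apart.

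**Figure D1:**
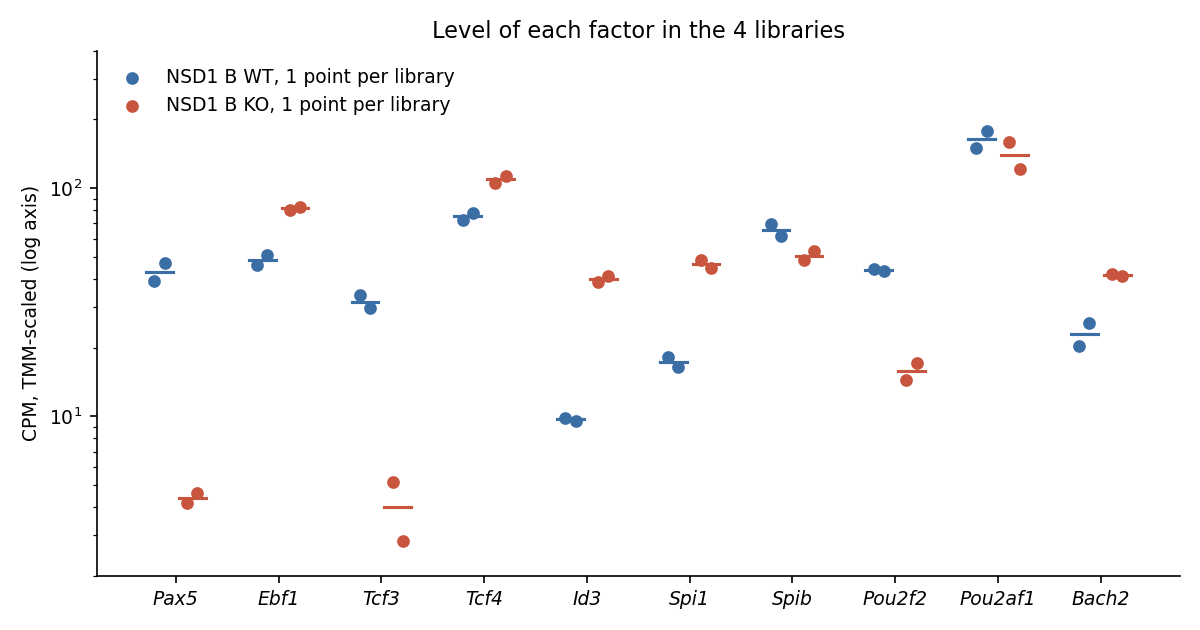
Level of each factor in the 4 libraries, in TMM-scaled CPM on a log axis, with 1 point per library and a bar at the mean of each genotype (blue, NSD1 B WT; red, NSD1 B KO). The libraries of the genotypes do not overlap for 9 of the 10 genes, and overlap for Pou2af1.

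The largest changes were decreases of *Pax5* and *Tcf3*, followed by an increase of *Id3*. The libraries of the genotypes did not overlap for 9 of the 10 factors, against 88.1% of all genes tested. Within a genotype the libraries differed by at most 0.33 on the log2 scale in NSD1 B WT, for *Bach2*, and by at most 0.86 in NSD1 B KO, for *Tcf3*. An exact permutation test on 1 gene with 2 libraries against 2 cannot give a p below 0.333, so the p-values are those of edgeR's test across all genes. By the size of their change the factors ranked between 3145 and 10212 of 11657.

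**Figure D2:**
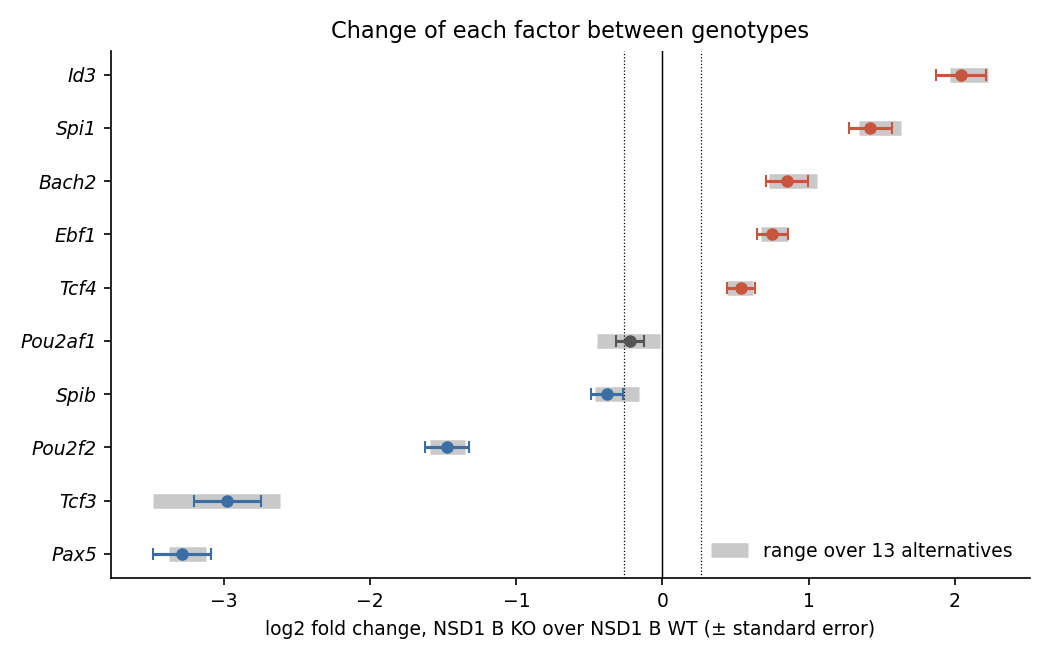
Log2 fold change of each factor, NSD1 B KO over NSD1 B WT, with its standard error. Red points are higher and blue points lower past the threshold, the dark point is not past it, grey bars span the 13 alternatives in processing, and dotted lines mark a fold change of 1.2. No bar crosses 0, and the bars of Spib and Pou2af1 cross the dotted line.

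The RefSeq promoters of 8 of the 10 factors could be read (GRCm38.p6, 250 bases before to 50 bases after the start), with 9 starts because *Ebf1* has 2. Those of the 3 factors that fell the most, and that of *Id3*, the factor that rose the most, are given 5′ to 3′ on the strand of the gene. Capitals mark E boxes (CANNTG) and, in *Id3*, the PU box GAGGAAG, which lies on the opposite strand.
Pax5: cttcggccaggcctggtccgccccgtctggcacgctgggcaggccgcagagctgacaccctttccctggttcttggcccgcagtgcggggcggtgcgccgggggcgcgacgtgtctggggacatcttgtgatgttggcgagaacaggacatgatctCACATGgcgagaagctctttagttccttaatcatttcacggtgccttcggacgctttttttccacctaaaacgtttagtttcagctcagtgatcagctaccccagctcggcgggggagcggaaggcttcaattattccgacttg
Tcf3: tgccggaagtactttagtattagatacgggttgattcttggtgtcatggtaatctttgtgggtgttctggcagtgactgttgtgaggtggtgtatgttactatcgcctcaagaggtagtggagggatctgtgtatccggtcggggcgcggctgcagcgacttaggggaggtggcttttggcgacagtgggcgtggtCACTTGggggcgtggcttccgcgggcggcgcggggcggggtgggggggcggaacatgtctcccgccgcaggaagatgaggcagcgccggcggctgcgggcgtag
Pou2f2: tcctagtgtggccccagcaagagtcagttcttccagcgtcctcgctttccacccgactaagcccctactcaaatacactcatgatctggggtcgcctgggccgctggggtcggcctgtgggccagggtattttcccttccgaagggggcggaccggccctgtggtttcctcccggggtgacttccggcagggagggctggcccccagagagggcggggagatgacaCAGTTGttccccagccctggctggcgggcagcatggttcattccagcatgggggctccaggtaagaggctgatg
Id3: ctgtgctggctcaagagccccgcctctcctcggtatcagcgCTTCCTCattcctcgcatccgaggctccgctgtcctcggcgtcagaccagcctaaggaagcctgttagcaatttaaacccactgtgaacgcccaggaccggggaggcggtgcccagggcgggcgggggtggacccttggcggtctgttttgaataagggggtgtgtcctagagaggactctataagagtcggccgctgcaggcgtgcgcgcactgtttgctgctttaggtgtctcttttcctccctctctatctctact
The windows are chr4:44710645-44710944 (minus strand) for *Pax5*, chr10:80433586-80433885 (minus) for *Tcf3*, chr7:25132411-25132710 (minus) for *Pou2f2* and chr4:136143572-136143871 (plus) for *Id3*. The window of *Pou2f2* lies well inside the gene, whose annotated span begins upstream at 25179726. So does that of *Bach2* (chr4:32417185-32417484, plus), whose span begins at 32238804. For these genes the promoter read is that of an internal start, and the outermost start was not searched. Counted from the first transcribed base as 0, the E boxes begin at -94 in *Pax5*, -54 in *Tcf3* and -24 in *Pou2f2*. The PU box of *Id3* begins at -209. Both strands were searched for 4 motifs. An E box lay in 6 of the 9 promoters, among them those of all 4 factors that were lower, and in 72.3% of all 32851 promoters of this length. No E box was found in the promoters of *Id3* and *Bach2*, nor at 1 of the 2 starts of *Ebf1*. The octamer ATGCAAAT lay in 0 of the 9, against 1.74% of all promoters, the PU box in that of *Id3* alone (13.6% of all), and CCCNNGGG, a form of the EBF1 site, in that of *Spib* alone (13.7% of all). The GC content of the 4 printed promoters was 59.0% to 64.0%, with a median of 52.7% over all promoters.

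*Pax5* (ENSMUSG00000014030.15), the commitment factor, fell more than any other of the 10. Its span in mm10 is chromosome 4, 44524757 to 44710487, minus strand, with 8853 bases of exon. It had 279 and 342 counts for NSD1 B WT against 30 and 31 for NSD1 B KO. The levels were 42.9 ± 5.47 and 4.39 ± 0.310 CPM (mean ± SD, n = 2). Both NSD1 B KO libraries lay far below both NSD1 B WT libraries. The log2 fold change was -3.29 (SE 0.20, edgeR adjusted p = 6.31e-20), a level 9.76-fold lower. A gene model of unsettled type on the opposite strand, 5730488B01Rik, shares 636 bases of exon with *Pax5*, which is 7.18% of its exon length. It had 25 and 31 counts for NSD1 B WT against 134 and 109 for NSD1 B KO, and reads of the shared bases cannot be given to 1 of these genes without strand. A further model on that strand, 4930517J16Rik, overlaps *Pax5* without sharing exon and had 13 and 9 counts for NSD1 B WT against 0 for NSD1 B KO.

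*Ebf1* (ENSMUSG00000057098.14), which specifies the lineage upstream of *Pax5*, went the other way. Its span is chromosome 11, 44617317 to 45008091, plus strand. Reads on it were counted 329 and 372 times for NSD1 B WT against 577 and 558 for NSD1 B KO. The levels were 48.5 ± 3.43 and 81.6 ± 1.95 CPM (mean ± SD, n = 2). The genotypes did not overlap, and the log2 fold change was 0.75 (SE 0.11, edgeR adjusted p = 1.50e-08), or 1.68-fold higher. Per kb of exon, the ratio of *Pax5* to *Ebf1* was 0.935 and 1.01 for the NSD1 B WT libraries, against 0.0573 and 0.0612 for NSD1 B KO. These 2 factors thus stood at nearly equal levels per length in NSD1 B WT and far apart in NSD1 B KO. Of their relatives *Pax1*, *Pax2*, *Pax8*, *Pax9*, *Ebf2*, *Ebf3* and *Ebf4*, 0 had enough counts to be tested, and only *Ebf3* was counted, with 1 count in 1 library.

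The E proteins and their inhibitors changed in different directions, with *Tcf3* lower and *Tcf4*, *Id3*, *Tcf12* and *Id2* higher. *Tcf3* (ENSMUSG00000020167.14, chromosome 10 from 80409514 to 80433647, minus strand), which encodes E12 and E47, had 242 and 217 counts for NSD1 B WT against 37 and 19 for NSD1 B KO. This was 31.8 ± 2.96 and 3.98 ± 1.64 CPM (mean ± SD, n = 2). The NSD1 B KO libraries differed from each other more for *Tcf3* than for any other of the 10 factors, and still lay well below both NSD1 B WT libraries. Its log2 fold change was -2.98 (SE 0.23, edgeR adjusted p = 2.29e-16), 7.88-fold lower, and it ran from -3.49 to -2.62 when 1 library was left out.

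*Tcf4* (ENSMUSG00000053477.17, chromosome 18 from 69343356 to 69689079, plus strand), which encodes the E protein E2-2, had 517 and 570 counts for NSD1 B WT against 761 and 759 for NSD1 B KO. Its levels of 75.2 ± 3.98 and 109 ± 4.996 CPM (mean ± SD, n = 2) did not overlap. On the log2 scale the difference was 0.54 (SE 0.10, edgeR adjusted p = 1.78e-06), or 1.45-fold higher. E2-2 is also the defining factor of plasmacytoid dendritic cells, which can carry B220. Of 10 markers of those cells 5 were at 0 in all 4 libraries, *Siglech* among them, and the summed level of the list was 85.1 to 93.6 CPM for NSD1 B WT against 182 to 190 CPM for NSD1 B KO. *Ly6c2* and *Bst2*, which other cells use as well, rose, and *Smim5* and *Runx2* fell to 0 counts.

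*Id3* (ENSMUSG00000007872.3, chromosome 4 from 136143497 to 136145755, plus strand), the inhibitor of the E proteins, had 70 counts for each NSD1 B WT library against 280 and 277 for NSD1 B KO. The libraries of each genotype nearly coincided, at 9.69 ± 0.156 and 40.04 ± 1.60 CPM (mean ± SD, n = 2). The log2 fold change was 2.05 (SE 0.17, edgeR adjusted p = 4.05e-15), or 4.13-fold higher. *Id2*, the inhibitor best known from NK cells and other innate lymphocytes, had 76 and 70 counts for NSD1 B WT against 703 and 623 for NSD1 B KO, with a log2 fold change of 3.23. The third E protein gene, *Tcf12*, had 157 and 130 counts for NSD1 B WT against 388 and 294 for NSD1 B KO, with a log2 fold change of 1.30. *Id1* and *Id4* were at 0 in all 4 libraries.

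Per kb of exon, the summed level of *Tcf3* and *Tcf4* was 2.02 and 1.91 times that of *Id3* for the NSD1 B WT libraries, against 0.236 and 0.210 times for NSD1 B KO. *Tcf3* made up 76.0% and 72.1% of that sum in NSD1 B WT and 24.8% and 14.5% in NSD1 B KO. The genotypes did not overlap in either ratio. Exon length here is the union over all annotated transcripts, which is long for *Tcf4* (27382 bases, 62 transcripts) and lowers its level per kb.

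The ETS factors *Spi1* and *Spib* moved in opposite directions. *Spi1* (ENSMUSG00000002111.8, chromosome 2 from 91082390 to 91115756, plus strand), which encodes PU.1, was counted 130 and 120 times for NSD1 B WT against 347 and 300 for NSD1 B KO. It rose from 17.3 ± 1.26 to 46.4 ± 2.57 CPM (mean ± SD, n = 2). On the log2 scale the difference was 1.42 (SE 0.15, edgeR adjusted p = 3.39e-12), or 2.68-fold higher. Macrophages and other myeloid cells carry more PU.1 than B cells do, and some of their genes moved with *Spi1*. Of 10 myeloid markers 7 could be tested, of which 5 rose and 2 fell. *Lyz2* had 31771 and 33166 counts for NSD1 B WT against 42393 and 37280 for NSD1 B KO. *Csf1r*, the receptor for the macrophage growth factor, rose from 23 and 27 counts to 375 and 335 and *Cd14* from 4 and 9 to 71 and 77. *Adgre1* rose from 329 and 319 to 640 and 533, and *S100a9* from 0 to 13 in each NSD1 B KO library. *Itgam* fell from 487 and 615 to 273 and 334 and *S100a8* from 39 and 28 to 0. *Mpo* was at 0 in all 4 libraries. Their part in the change of *Spi1* was not tested.

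*Spib* (ENSMUSG00000008193.13, chromosome 7 from 44525993 to 44532071, minus strand) had 497 and 453 counts for NSD1 B WT against 347 and 355 for NSD1 B KO. These were 65.8 ± 5.36 and 50.5 ± 3.22 CPM (mean ± SD, n = 2), which is a small difference without overlap. The log2 fold change was -0.38 (SE 0.11, edgeR adjusted p = 0.00173), or 1.30-fold lower. This call was lost without 1 library, in 1 other setting and at the stricter threshold (adjusted p under 1e-05 and more than 0.5 on the log2 scale). Without NSD1 B WT replicate 1 the value was -0.26 (adjusted p = 0.0623) and with a trend with exon length removed -0.16 (adjusted p = 0.161), in a range of adjusted p from 0.000142 to 0.161 over all alternatives. Per kb of exon, *Spib* stood at 3.59 and 3.55 times the level of *Spi1* in the NSD1 B WT libraries, and at 0.940 and 1.11 times in the NSD1 B KO libraries. The sum of both was 29.3 ± 2.34 CPM per kb for NSD1 B WT against 34.8 ± 0.169 for NSD1 B KO (mean ± SD, n = 2).

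Among 11 further ETS genes, all tested, 2 rose, 5 fell and 4 were not past the threshold. *Spic*, the third gene of the PU.1 group and a factor of red pulp macrophages, had 92 and 105 counts for NSD1 B WT against 0 for NSD1 B KO, a level at least 63.2-fold lower when 3 counts over both libraries are taken as the limit. *Elk3* fell from 276 and 249 counts to 15 in each NSD1 B KO library (log2 fold change -4.06). *Fli1*, *Elf2* and *Elf4* fell by less, at -0.58, -0.53 and -0.29. *Etv6* rose, and so did *Ets1*, the most counted of these genes, at log2 fold changes of 1.40 and 0.55. *Gabpa*, *Elk4*, *Elf1* and *Ets2* lay between -0.02 and 0.12 and were not past the threshold. The call of *Elf4* was lost by DESeq2 and with the exon length trend removed (-0.28 and -0.11), and without NSD1 B KO replicate 2 or NSD1 B WT replicate 2 (-0.26 and -0.22). *Ets2* passed at 0.30 with the trend removed.

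Of the octamer pair, *Pou2f2* fell and *Pou2af1* was not past the threshold. *Pou2f2* (ENSMUSG00000008496.19, chromosome 7 from 25087344 to 25179726, minus strand), which encodes OCT2, had 315 and 318 counts for NSD1 B WT against 104 and 115 for NSD1 B KO. Its level was 43.8 ± 0.411 CPM for NSD1 B WT against 15.8 ± 1.87 CPM for NSD1 B KO (mean ± SD, n = 2), without overlap. On the log2 scale the difference was -1.47 (SE 0.15, edgeR adjusted p = 3.55e-12), or 2.78-fold lower. D930028M14Rik, a long non-coding RNA that lies in the same locus on the opposite strand and shares no exon with it, had 47 and 49 counts for NSD1 B WT against 0 for NSD1 B KO. *Pou2f1*, which encodes the widely used OCT1, fell as well, from 490 and 459 counts to 90 and 103 (log2 fold change -2.24), and *Pou2f3* was at 0 in all 4 libraries.

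*Pou2af1* (ENSMUSG00000032053.8, chromosome 9 from 51213708 to 51240080, plus strand), the coactivator OBF1, was the most counted of the 10 factors. It had 1076 and 1295 counts for NSD1 B WT against 1151 and 812 for NSD1 B KO. The levels were 164 ± 18.8 and 140 ± 27.8 CPM (mean ± SD, n = 2). The libraries of the genotypes overlapped. The log2 fold change was -0.22 (SE 0.10, edgeR adjusted p = 0.0349), or 1.17-fold lower, under the fold change set for a call. It moved with the libraries used, to -0.44 without NSD1 B KO replicate 1 and -0.31 without NSD1 B WT replicate 1, where it was past the threshold, and to -0.03 without NSD1 B KO replicate 2 and -0.08 without NSD1 B WT replicate 2, where it was not. Its adjusted p ranged from 7.88e-06 to 0.894 over all alternatives. Per kb of exon, *Pou2af1* stood at 11.0 and 13.2 times the level of *Pou2f2* in NSD1 B WT and at 35.8 and 22.8 times in NSD1 B KO.

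*Bach2* (ENSMUSG00000040270.16, chromosome 4 from 32238804 to 32586108, plus strand), the repressor of the plasma cell program, had 145 and 187 counts for NSD1 B WT against 302 and 276 for NSD1 B KO. It rose from 22.9 ± 3.74 to 41.5 ± 0.667 CPM (mean ± SD, n = 2), without overlap. On the log2 scale the difference was 0.85 (SE 0.15, edgeR adjusted p = 7.49e-07), or 1.81-fold higher. The antisense gene Bach2os shares 537 bases of exon with it (5.40% of its exon length) and had 0 counts for NSD1 B WT against 5 and 6 for NSD1 B KO. Bach2it1, which lies in an intron of *Bach2* on the same strand, had 15 and 22 counts for NSD1 B WT against 0 for NSD1 B KO. The related *Bach1* rose from 17 and 15 counts to 67 and 86 (log2 fold change 2.31). Of the small MAF proteins with which BACH factors pair, *Mafk* rose from 15 and 18 counts to 216 and 168, *Mafg* fell from 57 and 89 to 3 in each NSD1 B KO library, and *Maff* was at 0 in all 4 libraries.

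**Figure D3:**
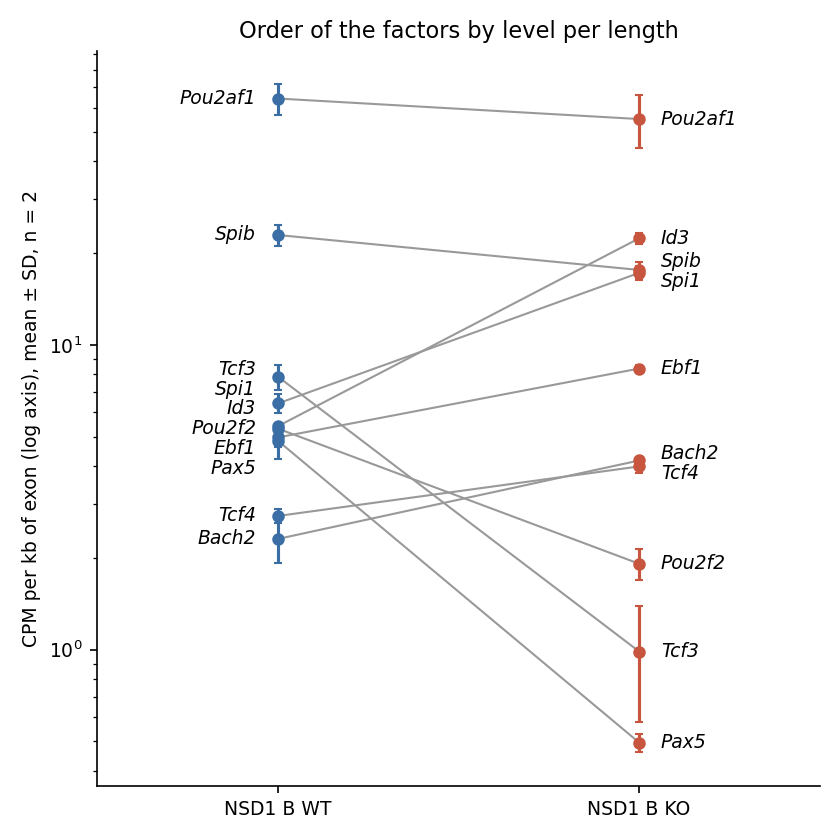
Mean level of each factor per kb of exon (CPM per kb, log axis) in NSD1 B WT and NSD1 B KO, with the SD of the 2 libraries, and a line joining the genotypes. Pou2af1 is the highest in both, Id3 moves from 5.41 to 22.4 CPM per kb and Pax5 from 4.85 to 0.496.

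Set per kb of exon, the order of the factors changed between the genotypes. In NSD1 B WT the order ran from *Pou2af1* at 64.3 ± 7.37 CPM per kb (mean ± SD, n = 2) through *Spib*, *Tcf3*, *Spi1*, *Id3*, *Pou2f2*, *Ebf1*, *Pax5* and *Tcf4* to *Bach2* at 2.31 ± 0.376. The neighbours *Id3* and *Pou2f2*, and *Ebf1* and *Pax5*, overlapped in this order, and *Pou2f2* and *Ebf1*, and *Tcf4* and *Bach2*, differed by less than the sum of their SDs. In NSD1 B KO the order was *Pou2af1* at 55.1 ± 10.9 CPM per kb, *Id3*, *Spib*, *Spi1*, *Ebf1*, *Bach2*, *Tcf4*, *Pou2f2*, *Tcf3* and *Pax5* at 0.496 ± 0.0351. There *Spib* and *Spi1* overlapped, and *Bach2* and *Tcf4* differed by less than the sum of their SDs. *Pax5* moved from the 8th place to the last and *Id3* from the 5th to the 2nd.

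**Figure D4:**
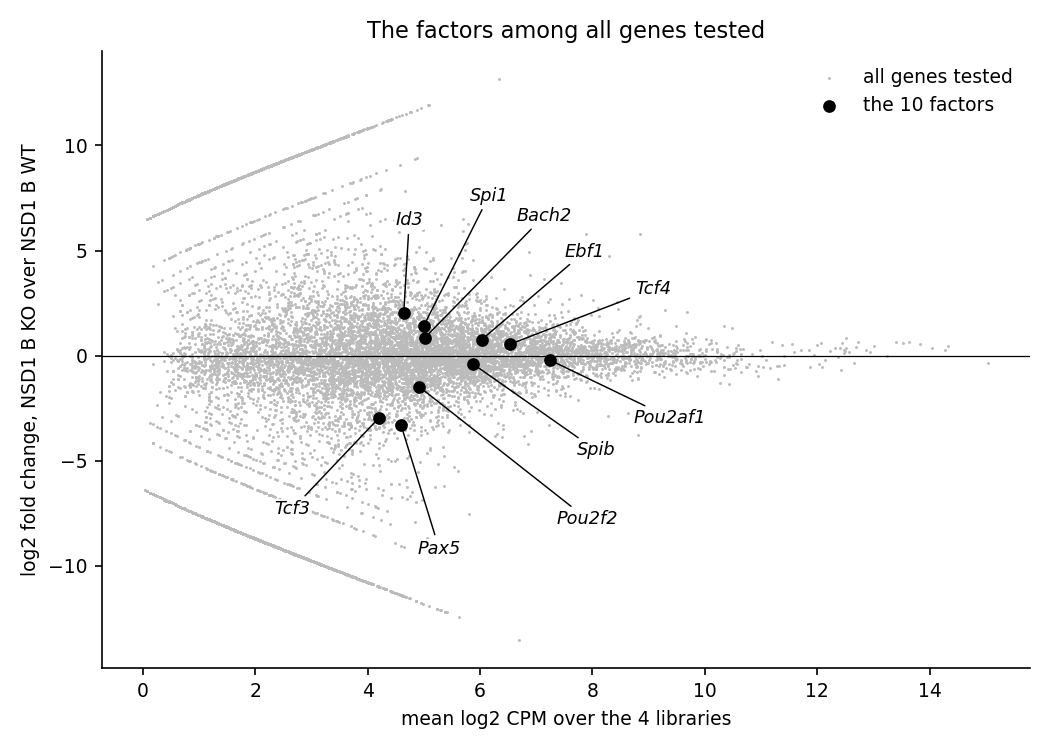
Log2 fold change against mean log2 CPM for all 11657 genes tested (grey) and the 10 factors (black, labelled). The outer curves of grey points are genes with 0 counts in 1 genotype, and the 10 factors lie inside the cloud, between -3.29 and 2.05.

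Genes known to be controlled by these factors were examined as lists, which are described by their counts beside the 37.1% higher and 41.1% lower over all genes. Of 13 genes that PAX5 activates, all tested, 3 rose, 7 fell and 3 were not past the threshold, with a median log2 fold change of -0.32. *Fcer2a*, which encodes the IgE receptor CD23, had 134 and 172 counts for NSD1 B WT against 0 for NSD1 B KO, at least 98.2-fold lower against 3 counts. *Cr2*, the complement receptor CD21, fell from 304 and 277 counts to 17 and 26 (log2 fold change -3.69). *Lef1*, a transcription factor of early lymphocytes, went the other way, from 0 counts to 42 and 31, at least 25.3-fold higher.

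Of 12 genes that PAX5 silences, 8 could be tested, of which 3 rose, 3 fell and 2 were not past the threshold (median 0.05). *Csf1r* rose (log2 fold change 3.87), and so did *Prdm1*, the plasma cell regulator Blimp-1, from 17 and 21 counts to 59 and 52 (1.59). *Emb*, which encodes the adhesion protein embigin, fell from 713 and 761 counts to 41 and 74 (-3.62). *Flt3*, *Cd28* and *Ccl3* were at 0 in all 4 libraries, and *Notch1* had 0 counts for NSD1 B WT against 7 and 11 for NSD1 B KO.

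Of 11 targets of EBF1, 9 were tested, of which 3 rose and 5 fell (median -0.30). *Vpreb3* rose from 144 and 163 counts to 629 and 593 (log2 fold change 2.05), and *Traf5*, a signal adaptor of the TNF receptor family, from 0 to 70 and 37, at least 37.0-fold higher. *Cd79a*, the gene that also drives Mb1-Cre, fell from 14544 and 14192 counts to 5831 and 5166 (-1.33). *Igll1* and *Vpreb1*, the surrogate light chain genes of precursor B cells, were at 0 in all 4 libraries.

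Of 10 targets of the E proteins 5 were tested, of which 2 rose and 3 fell (median -1.08). *Il7r* fell from 62 and 63 counts to 5 and 2 (-4.06), and *Cxcr4*, a chemokine receptor, rose from 1 and 4 to 53 in each library (4.39). *Rag1*, *Rag2* and *Dntt*, used in receptor assembly, were at 0 in all 4 libraries.

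Targets of the other factors were split as well. Of 12 targets of PU.1 and SPIB, all tested, 5 rose and 5 fell (median 0.16). *Btk*, a kinase of B cell receptor signalling, fell from 111 and 136 counts to 8 and 13 (log2 fold change -3.48), *P2ry10*, a lysophospholipid receptor gene, rose from 675 and 713 to 2252 and 1913 (1.64), and *Bcl6*, the germinal centre regulator, from 34 and 35 to 112 and 91 (1.61). Of 8 targets of OCT2 and OBF1, which include *Btk* and *Bcl6*, 3 rose and 3 fell (median -0.08), and *Il5ra*, the interleukin-5 receptor, fell from 817 and 872 counts to 318 and 293 (-1.41). Of 9 genes that BACH2 represses 5 were tested, of which 3 rose and 2 fell (median 1.59). Besides *Csf1r* and *Prdm1*, *Cebpb* rose from 13 and 8 counts to 37 and 42 (1.95), and *Gclm*, an enzyme subunit of glutathione synthesis, fell from 62 and 54 to 9 and 15 (-2.21). Of 16 tested genes among 17 other transcription factors of the B cell network, 7 rose, 7 fell and 2 were not past the threshold.

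**Figure D5:**
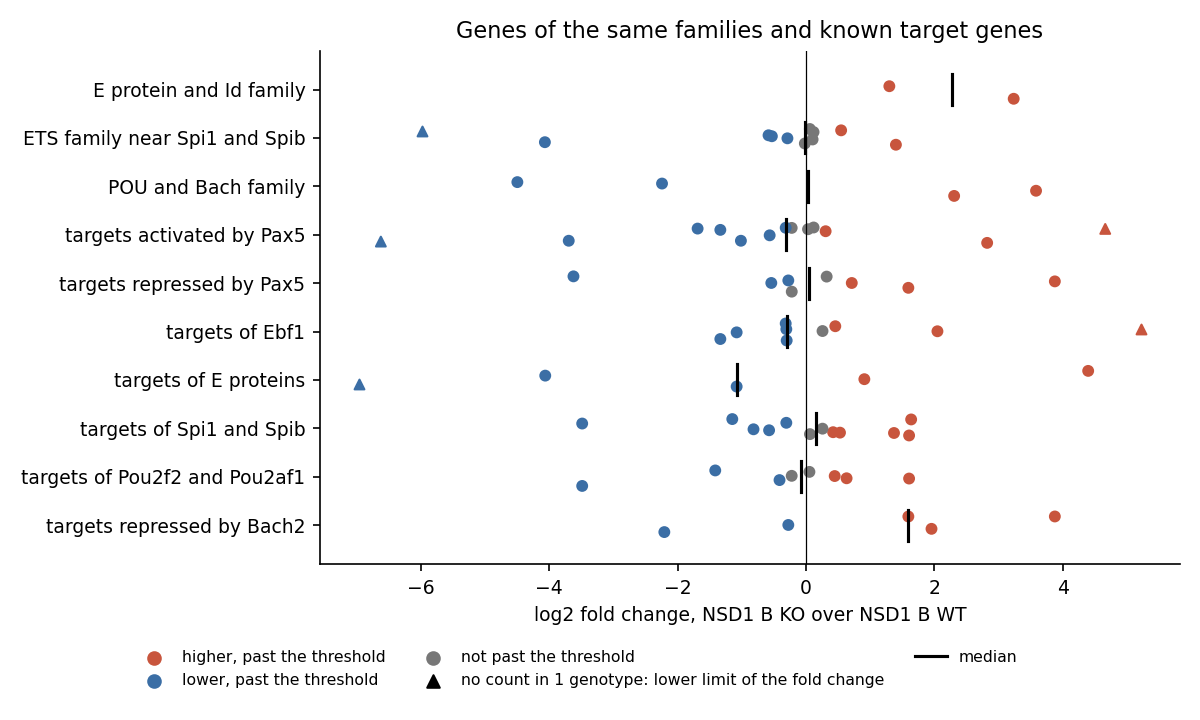
Log2 fold changes of the tested genes of the same families and of the target lists, 1 point per gene (red, higher; blue, lower; grey, not past the threshold), with the median of each list as a bar. Triangles are genes with 0 counts in 1 genotype, set at the lower limit of their fold change. Higher and lower genes stand side by side in each list with more than 2 genes.

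Factors of both directions shared a chromosome. Chromosome 4 holds *Pax5*, which was lower, and *Bach2* and *Id3*, which were higher, and chromosome 7 holds *Spib* and *Pou2f2*, both lower. The 3 longest genes, *Ebf1* (390775 bases), *Bach2* (347305) and *Tcf4* (345724), were all higher, and so was the shortest, *Id3* (2259). For each of the 9 factors past the threshold, the tested gene closest in log2 CPM over the 4 libraries lay within 0.04 to 0.09 (root mean square difference). These genes were Igkv5-48 for *Pax5*, *Aida* for *Ebf1*, *Hk2* for *Tcf3*, *Pip4p1* for *Tcf4*, *Plekha3* for *Id3*, *Ddx41* for *Spi1*, *Aktip* for *Spib*, *Capn2* for *Pou2f2* and *Map7d1* for *Bach2*.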

How the data were processed

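RNA of B220+ spleen cells was measured by paired-end sequencing. Per their Methods, the authors mapped reads to mm10 with Bowtie2. They deposited 1 raw count per gene and library, neither normalized nor set per length. The counter and its annotation and strand setting are unstated in the labels and Methods. Their Cufflinks FPKM was not used. Lines naming no gene held 58.0% to 60.0% of the reads listed and stayed out of library sizes.

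Genotypes came from the labels. Genes kept by filterByExpr (minimum count 10, total 15) were scaled by TMM and tested with edgeR 4.0.16 (quasi-likelihood test, R 4.3.3), with Benjamini-Hochberg adjustment over all 11657 genes. The fold limit of 1.2 is that of the Methods, and p was taken as adjusted. The coefficient of variation was 0.0735. The mean chi-square between libraries of 1 genotype (2.99 for NSD1 B WT, 3.86 for NSD1 B KO) shows no library deposited in duplicate. The precision rests on 19 to 1295 counts per factor.

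GENCODE M21 matched 99.5% of 55401 identifiers. A genotype without any count of a gene was set to 3 counts over its libraries, a limit that covers counting error only.

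The factors and all lists were chosen with earlier results of these data known, so no list was tested. Genes named are the factors, tested relatives, the 3 largest changes past the threshold in each target list, markers, the gene closest to each factor, and *Nsd1*. Overlapping genes and genes at 0 counts or too few to test, and *Dlat*, were picked with their values in view. Some genes of the lists are not reported here by name. Alternatives were 3 other scalings, DESeq2 1.42.0, limma-voom 3.58.1, 2 filters, 2 thresholds, each library left out, the replicate number as a block, and a loess trend (span 0.5) with exon length removed. The steps were tested on simulated data.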

Additional observations from a re-analysis of the deposited data

How the results depend on the processing

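Each of the 10 factors kept its direction under the 13 alternatives in scaling, test, filter, libraries and pairing. The calls of *Pax5*, *Ebf1*, *Tcf3*, *Tcf4*, *Id3*, *Spi1*, *Pou2f2* and *Bach2* held under all of these, and those of *Spib* and *Pou2af1* did not. Between 8 and 10 factors were past the threshold. *Spib* lost its call in 2 of these, given in the results, and at the stricter threshold of adjusted p under 1e-05 with more than 0.5 on the log2 scale. *Pou2af1* was past the threshold with no limit on the fold change and in 4 of the 13, namely without NSD1 B KO replicate 1, without NSD1 B WT replicate 1, by library size alone (-0.30) and with a filter of 1 CPM in every library (-0.26). With that last filter, 5846 of 8334 genes were past the threshold in place of 9119 of 11657, a smaller share as well as a smaller number. That filter keeps none of the 2203 genes with 0 counts in both libraries of 1 genotype. The median log2 fold change of all genes was -0.10 with TMM and 0.12 with the exon length trend removed, which raised the higher genes from 4324 to 4935 and lowered the lower ones from 4795 to 4152. In the target lists the alternatives changed some calls, and among the genes activated by PAX5 between 6 and 8 were lower, among targets of EBF1 between 2 and 5, and among targets of the E proteins between 1 and 3. With the exon length trend removed, 4 targets of EBF1 were higher and 2 lower (median -0.09), in place of 3 and 5.

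The replicate numbers were shared between genotypes, but same-numbered libraries did not deviate together (correlation 0.06 over genes). With the replicate block 8960 genes and 9 factors were past the threshold, and the block changed the call of no factor. With 2 libraries per genotype, whether libraries come from separate mice could not be examined, and low counts limit *Tcf3* and *Pax5* in NSD1 B KO most.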
